A study of Rattus norvegicus with 16 samples.

Results

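The enzymes that break down tryptophan through kynurenine were followed in rat kidney by RNA sequencing, together with a pair of enzymes that make and remove its amine products. The 10 genes were listed by name as enzymes of this pathway, by a rule that uses no measured value, though earlier results of these data were known when the list was made: Tdo2, Afmid, Kmo, Kynu, Aadat, Haao, Acmsd, Qprt, Ddc and Maoa. All 10 were among the 35849 genes of the table, and 9 of the 10 had enough reads to be tested.

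Renal tissue came from 16 male Sprague Dawley rats that were 6 to 8 weeks old at the start, 4 in each of 4 groups. The DN group (diabetic nephropathy) had received streptozotocin, a toxin of the insulin-producing beta cells, at 45 mg/kg, and a diet rich in glucose and fat, and its rats were kept in the study when blood glucose was above 16.7 mmol/l. Both treated groups, SIN (20 mg/kg) on one side and SIN (40 mg/kg) on the other, had the same streptozotocin, diet and glucose criterion, and were given sinomenine, a plant alkaloid, daily by gavage at those doses for 8 weeks. The normal group had citrate buffer in place of streptozotocin and an ordinary diet, so the DN and normal groups differ in toxin and diet together. The DN group received the vehicle, and no group received sinomenine without diabetes.

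In the kynurenine pathway, Tdo2 or the indoleamine dioxygenases open the ring of tryptophan, and Afmid (arylformamidase) turns the product into kynurenine. Kynurenine then meets a branch: Aadat (kynurenine aminotransferase II, which also acts in lysine breakdown) makes kynurenic acid, Kmo (kynurenine monooxygenase) makes hydroxykynurenine, and Kynu (kynureninase) cleaves both kynurenine and hydroxykynurenine. In the lower arm Haao (hydroxyanthranilate dioxygenase) forms an unstable product that either closes to quinolinic acid, which Qprt carries on toward NAD, or is decarboxylated by Acmsd and leaves that route. Proximal tubule cells of the kidney are known for holding most of these enzymes. Ddc (aromatic amino acid decarboxylase) makes dopamine, serotonin and tryptamine, and Maoa (monoamine oxidase A) oxidises such amines.

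The sequences just before the start sites of Aadat, Kmo and Afmid are shown because these 3 genes were the members that passed the test against the normal group in at least 1 comparison. They are the 250 bases before the start in RefSeq's GRCr8 annotation, a later build than the one the reads were aligned to, and 9 of the 10 members had an entry. The Aadat stretch is chr16:34555181-34555430 on the minus strand, the Kmo stretch chr13:90089271-90089520 on the plus strand and the Afmid stretch chr10:103544624-103544873 on the plus strand, each written 5′ to 3′. Capitals mark matches on either strand to AGGTCA (a nuclear receptor half-site), GCGTG (the core letters bound by the aryl hydrocarbon receptor, for which kynurenine and kynurenic acid are ligands) or GTTAAT (an HNF1 half-site).
Aadat promoter: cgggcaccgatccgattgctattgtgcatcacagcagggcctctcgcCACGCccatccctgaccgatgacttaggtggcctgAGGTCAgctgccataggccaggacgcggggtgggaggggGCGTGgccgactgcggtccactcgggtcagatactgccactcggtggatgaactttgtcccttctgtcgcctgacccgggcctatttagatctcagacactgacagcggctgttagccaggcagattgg
Kmo promoter: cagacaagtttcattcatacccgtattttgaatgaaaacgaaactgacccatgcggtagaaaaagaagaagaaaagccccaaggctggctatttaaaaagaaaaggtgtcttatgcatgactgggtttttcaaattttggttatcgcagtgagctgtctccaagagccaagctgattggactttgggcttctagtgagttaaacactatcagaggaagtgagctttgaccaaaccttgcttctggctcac
Afmid promoter: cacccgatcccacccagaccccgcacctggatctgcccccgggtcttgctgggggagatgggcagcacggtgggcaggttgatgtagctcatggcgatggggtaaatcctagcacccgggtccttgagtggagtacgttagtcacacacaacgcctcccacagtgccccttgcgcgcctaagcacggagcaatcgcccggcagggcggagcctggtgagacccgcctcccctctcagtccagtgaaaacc

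The Aadat stretch held AGGTCA 168 bases before the start, and GCGTG 129 bases before it and, on the other strand, 203 bases before it. The Kmo and Afmid stretches held none of the 3 motifs. Among 33469 rat promoters of the same length, 14.1% held AGGTCA, 25.9% held GCGTG and 6.45% held GTTAAT. The GC content was 62.0% for Aadat, 42.0% for Kmo and 64.4% for Afmid, against a median of 51.2% over all these promoters. A match is a description of letters and not a binding site.

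Reads per rat summed to between 19616312 and 25217030 estimated counts, and levels are given as CPM, a gene's reads scaled to a common library size, or as CPM per kb of transcript where genes are compared with each other. The tissue carried strong proximal tubule markers in every rat, with 2878.5 to 5855.3 CPM of the phosphate transporter Slc34a1 and 1569.8 to 2837.7 CPM of the endocytic receptor Lrp2. Of 6 liver markers Alb and Apoa1 stayed at or below 2.06 and 0.141 CPM, while F2, which the list also holds, ran from 13.5 to 62.0 CPM, and the sum of the 6 reached 79.7 CPM in DN replicate 4 against at most 60.0 CPM in the other 15 rats. The summed CPM of 12 proximal tubule markers ran from 14496 to 19909 in the normal group, 11971 to 17486 in the DN group, 13006 to 16649 at 20 mg/kg of sinomenine and 14280 to 19023 at 40 mg/kg, so the groups overlapped. In DN over normal edgeR's quasi-likelihood test called 0 of these 12 markers, 3 had an unadjusted p under 0.05, and DESeq2 and edgeR's exact test passed 1 and 2 of them. Of all genes the quasi-likelihood test called 3074 of 15775, DESeq2 4160 of 15751 and the exact test 3391 of 15775. Markers of other cells also moved in DN over normal. The summed adipose markers were 83.7 to 126 CPM in the DN rats against 59.4 to 66.7 CPM in the normal rats. Of 3 tested, 1 was called (Cidec, higher, by edgeR's quasi-likelihood test). Over all rats Cidec ran from 52.4 to 118 CPM, while Adipoq, Plin1 and Lep reached at most 20.1, 13.3 and 0.329 CPM. By that test Umod (of 5 thick limb and distal markers), Ptprc (of 6 leukocyte markers) and Apob (of 4 tested liver markers) were called lower. However, 1 thick limb and distal marker and 1 leukocyte marker were higher at an unadjusted p under 0.05. The liver list had a median log2 fold change of 0.39. Leukocyte sums overlapped, at 84.7 to 104 CPM in DN and 69.7 to 120 CPM in normal rats. The sum of stroma, muscle and skin markers was 480 CPM in DN replicate 3 against 85.4 to 111 CPM in the other DN rats, with 0 of 5 called by the quasi-likelihood test, 0 of the 2 that DESeq2 tested, 1 of 5 by the exact test and 2 at an unadjusted p under 0.05. The part of these marker differences in the results on the enzymes was not tested. In these bulk samples fewer cells of a type and less RNA per cell cannot be told apart. Serial numbers of the libraries followed each other group by group, so that library batch and condition likewise cannot be told apart.

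Aadat was the most abundant member in every group, and Tdo2 was at the floor of detection. By CPM per kb the normal group ranked Aadat at 743 ± 130 (SD, n = 4), Haao at 360 ± 19.0, Acmsd at 258 ± 65.4, Qprt at 103 ± 11.5, Kmo at 98.0 ± 4.28, Afmid at 77.1 ± 8.20, Kynu at 34.3 ± 2.57, Ddc at 24.9 ± 4.46 and Maoa at 10.6 ± 1.81. Neighbours in this order did not overlap between rats, except Qprt and Kmo. Over all 16 rats the median of Aadat ranked 43 among the 35849 genes, those of Haao and Acmsd 279 and 281, and that of Maoa 6674. In the DN group Haao and Acmsd overlapped, as did Kmo and Qprt, and Kynu and Ddc. The order depends on the transcript lengths in the table, and the length given for Acmsd, 1011 bases, is a whole number of codons. So are those given for Afmid (2511), Qprt (1203) and Ddc (5094), so this does not set Acmsd apart.

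**Figure D1:**
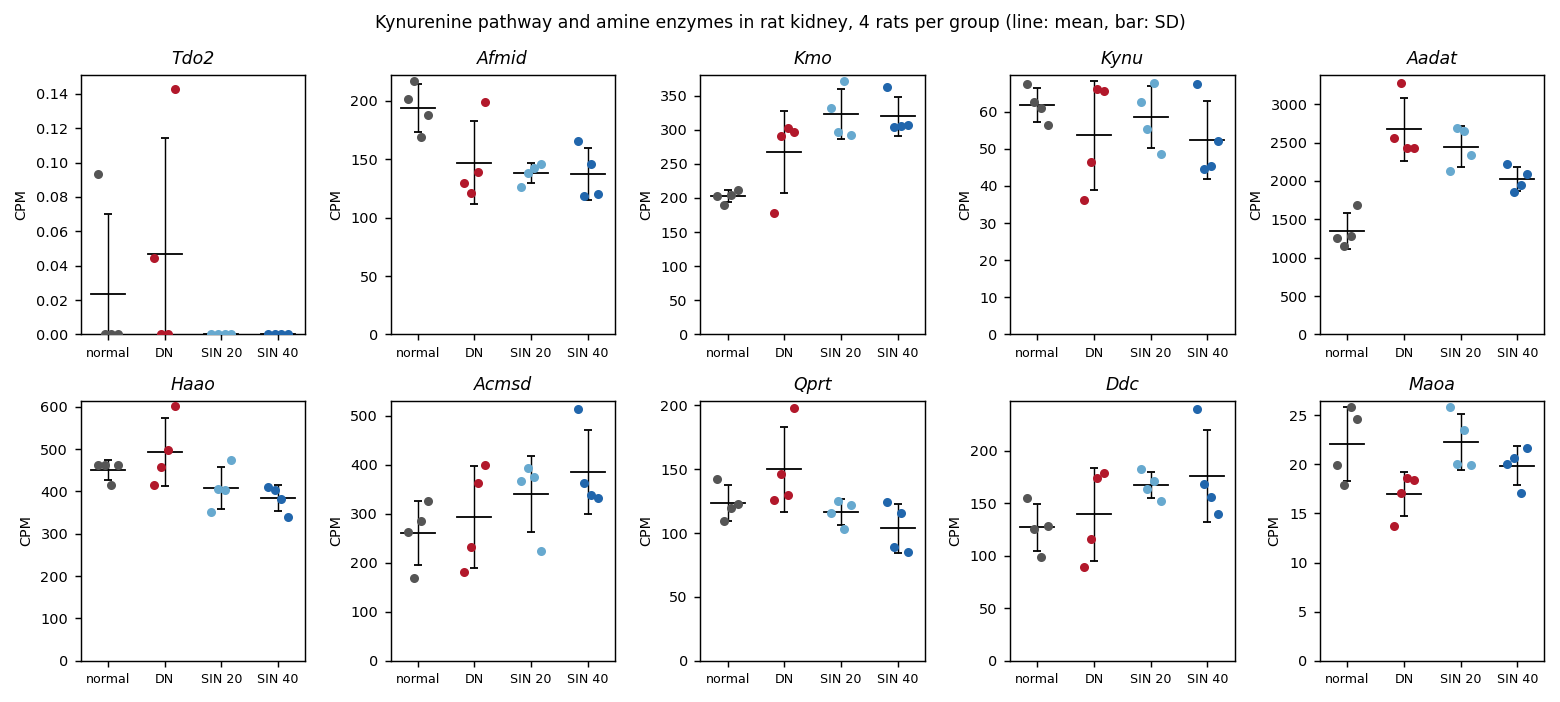
Level of each of the 10 genes in each of the 16 rats, in CPM from 0 (points: rats; line: group mean; bar: SD; n = 4 per group). Aadat of the 4 DN rats, 2422 to 3277 CPM, lies above the 4 normal rats, 1151 to 1686 CPM, and Tdo2 stays below 0.143 CPM throughout.

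The entry into the pathway rested on transcripts that were nearly absent from the kidney. Tdo2 had 2 counts in normal replicate 1, 1 count in DN replicate 1, 3 counts in DN replicate 4 and 0 in the other 13 rats, 6 counts in all, and it was not tested. The indoleamine dioxygenases, which catalyse the same step, reached at most 0.0931 CPM for Ido1 and 0.172 CPM for Ido2. At this depth no difference in the first step was detectable between groups.

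Afmid, the second step, was read at 202, 217, 169 and 187 CPM in the 4 normal rats and at 129, 121, 139 and 199 CPM in the 4 DN rats. DN replicate 4 lay within the normal range and the other 3 DN rats below it. The SIN (20 mg/kg) rats had 126, 138, 142 and 146 CPM and the SIN (40 mg/kg) rats 165, 119, 146 and 120 CPM, all below every normal rat. Its counts were fractions in 14 of the 16 rats, so part of its reads had been assigned by estimate. In the GRCr8 annotation its span overlaps a long noncoding RNA, from which reads without strand cannot be told apart.

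Aadat was the member that moved with the disease model. The 4 normal rats had 1251, 1151, 1286 and 1686 CPM and the 4 DN rats 2557, 3277, 2428 and 2422 CPM. Every DN rat was above every normal rat, and the log2 fold change of DN over normal was 1.00 (SE 0.15, adjusted p = 0.00570 by the quasi-likelihood test of edgeR, Benjamini-Hochberg over 15775 genes). In that comparison 19.5% of all genes tested passed an adjusted p of 0.05 and 24.3% had groups that did not overlap, so 1 of 9 members called, and 1 of 9 with groups apart, was no more than the share among all genes. The call held when each of the 8 rats was left out in turn, with log2 fold changes of 0.89 to 1.12. No other gene of the GRCr8 annotation overlaps Aadat, and its counts were whole in all 16 rats. Kynu, Acmsd and Maoa also had no overlap, whereas Kmo, Haao and Qprt overlap long noncoding RNAs and Ddc overlaps the coding gene Fignl1 and a long noncoding RNA, from which reads without strand cannot be told apart where the exons coincide. Kmo and Qprt had fractional counts in 4 rats each.

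The other branch enzymes did not pass the test in DN over normal. Kmo was at 202, 190, 205 and 211 CPM in the normal rats and at 177, 291, 303 and 297 CPM in the DN rats. DN replicate 1 lay below all 4 normal rats and the other 3 DN rats lay above them. The log2 fold change was 0.41 (SE 0.16, unadjusted p = 0.0305, adjusted p = 0.0988 by edgeR), and without DN replicate 1 it was 0.56 (adjusted p = 0.0113 by edgeR). Over all fits that left out 1 rat, Kmo ran from 0.34 to 0.56 (adjusted p = 0.0113 to 0.197 by edgeR). DN replicate 1 also had the lowest sum of proximal tubule markers of its group, 11971 CPM against 15170 to 17486 CPM in the other 3 rats, and was lowest of its group for 7 of the 9 tested members. The part of that marker difference in the result was not tested. Kynu, at 56.3 to 67.5 CPM in the normal group and 36.2 to 66.1 CPM in the DN group, had a log2 fold change of −0.20 (SE 0.18, adjusted p = 0.452 by edgeR).

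Of the remaining members, none passed an adjusted p of 0.05 in DN over normal. Counting Aadat and Kmo, 4 of the 9 tested members had an unadjusted p under 0.05 by edgeR there, against 5823 of 15775 genes. Afmid had a log2 fold change of −0.39 (SE 0.16, unadjusted p = 0.0360, adjusted p = 0.110 by edgeR), which became −0.58 (adjusted p = 0.0159) without DN replicate 4. Over all fits that left out 1 rat, Afmid ran from −0.58 to −0.30 (adjusted p = 0.0159 to 0.243 by edgeR). Maoa was at 20.0, 17.9, 25.9 and 24.6 CPM in the normal rats and 13.8, 17.04, 18.6 and 18.4 CPM in the DN rats, and its groups overlapped. Its log2 fold change was −0.38 (SE 0.15, unadjusted p = 0.0338, adjusted p = 0.106 by edgeR), and without normal replicate 2 it was −0.48 (adjusted p = 0.0465 by edgeR). Over all fits that left out 1 rat, Maoa ran from −0.48 to −0.29 (adjusted p = 0.0465 to 0.257 by edgeR). The lower arm gave log2 fold changes of 0.13 (SE 0.13) for Haao, 0.18 (SE 0.27) for Acmsd and 0.28 (SE 0.15) for Qprt, and Ddc 0.14 (SE 0.23), with adjusted p-values of 0.211 to 0.681 by edgeR. Acmsd and Ddc varied widely within the DN group, from 181 to 399 CPM and from 89.0 to 179 CPM, and both turned slightly negative, to −0.013 and −0.0055, without DN replicate 4. The median over the 9 tested members was 0.14, against 0.0016 over all genes tested.

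**Figure D2:**
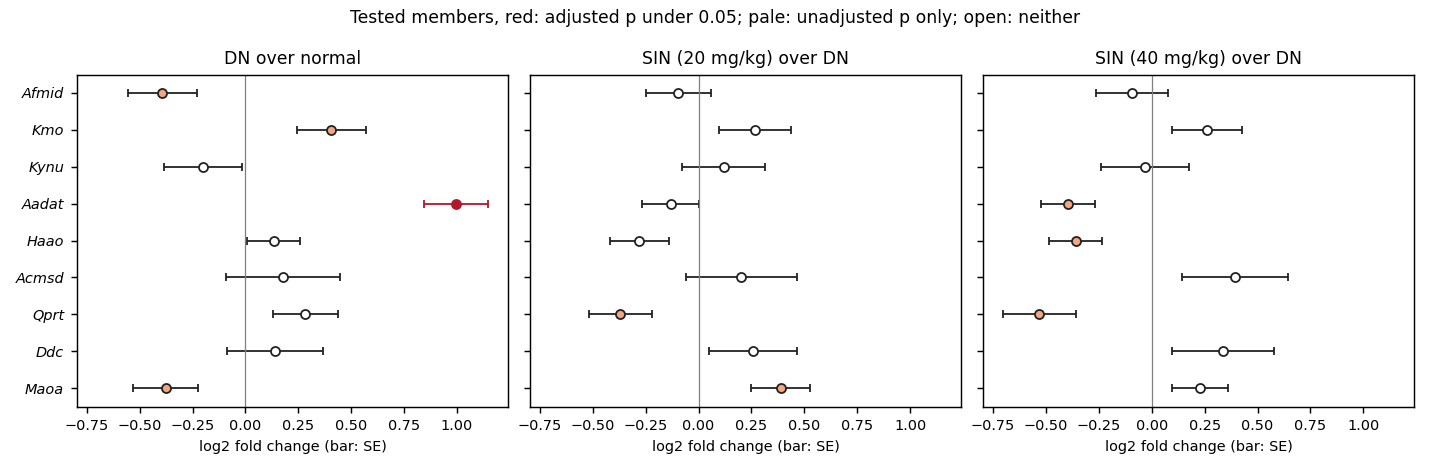
Log2 fold change of the 9 tested members in DN over normal, SIN (20 mg/kg) over DN and SIN (40 mg/kg) over DN, on 1 shared axis (point: fitted value; bar: SE; red: adjusted p under 0.05; pale: unadjusted p under 0.05 only; open: neither; n = 4 per group). Aadat in DN over normal, at 1.00, is the single red point.

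At 20 mg/kg of sinomenine no member passed the adjusted test against the DN group. With the quasi-likelihood test of edgeR 0 of 9 members and 0% of 15724 genes passed an adjusted p of 0.05, 2 of 9 members had an unadjusted p under 0.05 against 15.4% of all genes, and DESeq2 and edgeR's exact test called 0 members. Qprt and Maoa were those 2 members. Of all genes DESeq2 called 220 of 12662 and the exact test 89 of 15724. Qprt was at 126, 146, 130 and 198 CPM in the DN rats and at 115, 125, 103 and 122 CPM in the SIN (20 mg/kg) rats, the highest of which fell just short of the lowest DN rat. Its log2 fold change was −0.37 (SE 0.15, unadjusted p = 0.0330, adjusted p = 0.304 by edgeR). Maoa was at 25.8, 20.0, 23.4 and 19.9 CPM in the SIN (20 mg/kg) rats, each above all 4 DN rats, with a log2 fold change of 0.39 (SE 0.14, unadjusted p = 0.0197, adjusted p = 0.286 by edgeR). Groups of these 2 members among 9 did not overlap, against 8.99% of all genes. The unadjusted count fell to 1 without DN replicate 2 or DN replicate 4, Maoa in both cases, and to 0 without SIN (20 mg/kg) replicate 1 or replicate 3. The median over the 9 members was 0.12, against −0.0074 over all genes tested.

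At 40 mg/kg Aadat, Haao and Qprt were each lower than in the DN group in every rat, and none passed the adjusted test. Aadat was at 2214, 1857, 1949 and 2095 CPM, all below the lowest DN rat and all above the highest normal rat. Its log2 fold change over DN was −0.40 (SE 0.13, unadjusted p = 0.0120, adjusted p = 0.209 by edgeR), while DESeq2 gave an adjusted p of 0.0408. Haao, which makes the shared precursor of the lower arm, was at 415, 457, 499 and 601 CPM in the DN rats and at 411, 404, 381 and 341 CPM in the SIN (40 mg/kg) rats. The groups nearly met, and the log2 fold change was −0.36 (SE 0.13, unadjusted p = 0.0172, adjusted p = 0.224 by edgeR). Qprt was at 124, 89.1, 116 and 85.3 CPM, the highest just below the lowest DN rat at 126 CPM. Its log2 fold change was −0.53 (SE 0.17, unadjusted p = 0.0117, adjusted p = 0.209 by edgeR). In all, 0 of 9 members and 0% of 15530 genes passed the adjusted test by edgeR's quasi-likelihood test, 3 of 9 members had an unadjusted p under 0.05 against 17.1% of all genes, DESeq2 called 1 member and edgeR's exact test 0. Of all genes DESeq2 called 424 of 13697 and the exact test 161 of 15530.

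Kmo lay on the other side of the DN group at 40 mg/kg, with 362, 305, 306 and 307 CPM, each above all 4 DN rats. The groups nearly met, at 304.5 CPM in SIN (40 mg/kg) replicate 2 and 303.2 CPM in DN replicate 3. The log2 fold change of Kmo over DN was 0.26 (SE 0.16, unadjusted p = 0.147, adjusted p = 0.441 by edgeR), and 0.086 without DN replicate 1. With Aadat, Haao and Qprt this made 4 of 9 members whose groups did not overlap, against 10.4% of all genes. For Kmo, Haao and Qprt the nearest rats of the groups were almost level. The other 5 members overlapped with the DN group, among them Acmsd at 331 to 513 CPM (log2 fold change 0.39, SE 0.25) and Ddc at 140 to 240 CPM (0.34, SE 0.24). SIN (40 mg/kg) replicate 1 was highest of its group for 8 of the 9 tested members and had the highest sum of proximal tubule markers, 19023 CPM against 14280 to 15497 CPM in the other 3 rats. The part of that difference in these results was not tested. The median over the 9 members was −0.032, against 0.0067 over all genes tested.

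The SIN doses were also set against each other and against the normal group. Aadat was at 2125, 2686, 2644 and 2333 CPM at 20 mg/kg, which overlapped with the rats at 40 mg/kg, and the log2 fold change of the higher over the lower dose was −0.28 (SE 0.11, unadjusted p = 0.0288, adjusted p = 0.961 by edgeR). It was the 1 member of 9 with an unadjusted p under 0.05, against 4.98% of all genes. By edgeR's quasi-likelihood test 0 members were called there, against 0.00639% of all genes. DESeq2 and edgeR's exact test also called 0 members, and 17 of 15036 and 6 of 15657 genes. The groups of 0 members were apart, against 3.31% of genes. The other 8 log2 fold changes between the doses were between −0.18 and 0.18, with SEs of 0.11 to 0.19. Some exceeded their own SE, such as Maoa at −0.17 (SE 0.13). Adjusted p-values of these 8 members were 0.967 to 0.997 by edgeR.

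Against the normal group Kmo and Aadat passed the adjusted test at both doses. Kmo had 332, 297, 371 and 292 CPM in the SIN (20 mg/kg) rats, and all 8 SIN rats lay above all 4 normal rats. Its log2 fold changes were 0.67 (SE 0.10, adjusted p = 0.00447 by edgeR) at 20 mg/kg and 0.66 (SE 0.092, adjusted p = 0.00343 by edgeR) at 40 mg/kg. Aadat gave 0.86 (SE 0.14, adjusted p = 0.00621 by edgeR) and 0.59 (SE 0.13, adjusted p = 0.0290 by edgeR), again with all 8 SIN rats above the normal rats. The latter call was lost in 7 of the 8 fits that each left out 1 rat and was kept only without normal replicate 4 (log2 fold change 0.71), and Kmo was called in all of them. Afmid gave −0.49 (SE 0.10, adjusted p = 0.0187 by edgeR) at 20 mg/kg, a call lost without normal replicate 1 or SIN (20 mg/kg) replicate 2 or 3, and −0.50 (SE 0.13, adjusted p = 0.0533 by edgeR) at 40 mg/kg. These were 3 of 9 members called against 6.36% of all genes at 20 mg/kg, and 2 of 9 against 5.97% at 40 mg/kg. At 40 mg/kg Acmsd was above and Haao below every normal rat, with log2 fold changes of 0.56 (adjusted p = 0.141) and −0.23 (adjusted p = 0.177) by edgeR. Groups were apart from normal for 3 of 9 members at 20 mg/kg and 5 of 9 at 40 mg/kg. The share of all genes with groups apart was not counted for these comparisons, so nothing is drawn from that separation. All 3 comparisons with the normal group share its 4 rats, and all 3 with the DN group share the DN rats, so their values are not independent.

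Ratios taken within a rat compare enzymes that draw on related substrates, and hardly depend on how libraries are scaled. Acmsd over Qprt compares the exit from the NAD route with entry into it, and Kmo over Aadat compares the arms that leave kynurenine. The log2 ratio of Acmsd over Qprt was 0.88, 0.63, 1.25 and 1.41 in the normal rats and 0.52, 0.67, 1.48 and 1.01 in the DN rats, which overlapped. It was 1.66, 1.65, 1.86 and 0.88 in the SIN (20 mg/kg) rats and 2.04, 2.02, 1.54 and 1.95 in the SIN (40 mg/kg) rats, so that every rat at 40 mg/kg was above every DN and every normal rat. The difference of SIN (40 mg/kg) from DN was 0.97 and that from normal 0.85, each with p = 0.0286 (exact permutation, two-sided), which is the lowest value 4 rats against 4 can give, and an adjusted p of 0.0857 over 12 tests.

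The log2 ratio of Kmo over Aadat was −2.63, −2.60, −2.65 and −3.00 in the normal rats and −3.85, −3.49, −3.00 and −3.03 in the DN rats. Every DN rat was below every normal rat, though DN replicate 3 and normal replicate 4 nearly met. The ratio was −2.68, −3.17, −2.83 and −3.00 at 20 mg/kg and −2.61, −2.61, −2.67 and −2.77 at 40 mg/kg, where all 4 rats were above all DN rats and within the normal range. The differences were −0.63 for DN from normal and 0.68 for SIN (40 mg/kg) from DN, each with p = 0.0286 by the exact permutation test and an adjusted p of 0.0857. SIN (40 mg/kg) differed from normal by 0.051 (exact permutation p = 0.800). The levels themselves were not back at normal there. Kmo and Aadat were both above every normal rat at 40 mg/kg, with log2 fold changes of 0.66 and 0.59. In none of the 12 tests was the adjusted p under 0.05, which 12 tests at this group size could reach only if at least 7 of them gave the smallest p.

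**Figure D3:**
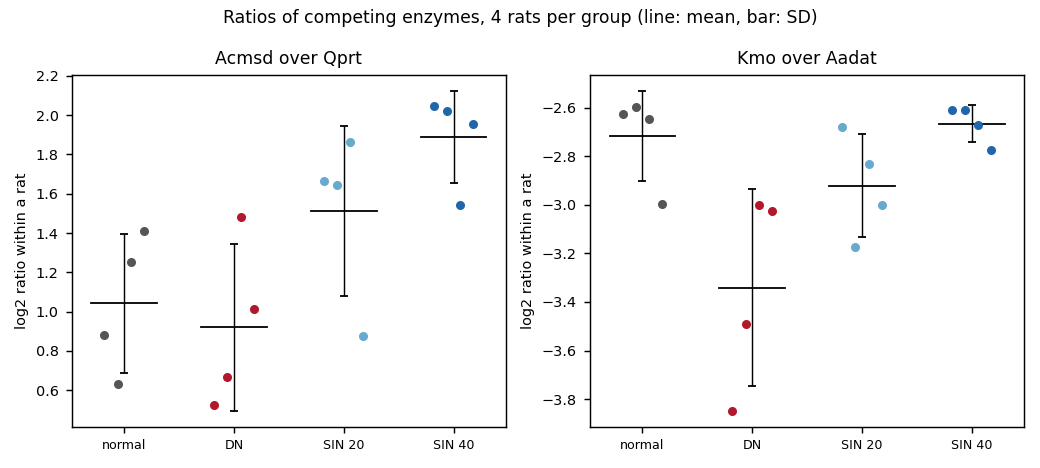
Log2 ratio within each rat of Acmsd over Qprt and of Kmo over Aadat, on linear axes of log2 values (points: rats; line: group mean; bar: SD; n = 4 per group). The SIN (40 mg/kg) rats, 1.54 to 2.04 for Acmsd over Qprt, lie above the DN rats, 0.52 to 1.48.

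The rest of tryptophan metabolism was counted from a list of 17 other enzymes, of which 12 were tested in DN over normal and 1 was called, a share of 8.33% against 19.5% of all genes. That gene was Got2, the mitochondrial aspartate aminotransferase, which can also transaminate kynurenine. It was at 555, 599, 450 and 464 CPM in the normal rats and at 740, 729, 687 and 759 CPM in the DN rats, with no overlap and a log2 fold change of 0.50 (SE 0.11, adjusted p = 0.0203 by edgeR). The call was lost without normal replicate 3, normal replicate 4 or DN replicate 2. Of the other kynurenine aminotransferases, Kyat1 had a log2 fold change of 0.090 (SE 0.17) and Kyat3 of 0.43 (SE 0.18, unadjusted p = 0.0368, adjusted p = 0.111 by edgeR). Kyat3 was called at 20 mg/kg over normal, at 0.73 (SE 0.12, adjusted p = 0.00740 by edgeR). Asmt, the last enzyme of melatonin synthesis, did not exceed 1.12 CPM in any rat and was not tested. In the KEGG pathway of tryptophan metabolism, as the deposited table lists it, 37 of 52 genes were tested and 4 were called in DN over normal, all higher: Aadat, Aldh2 (an aldehyde dehydrogenase, 0.47, SE 0.14), Dlst (a ketoglutarate dehydrogenase subunit, 0.43, SE 0.11) and Echs1 (a mitochondrial enoyl-CoA hydratase, 0.40, SE 0.12). That was 10.8% of the genes tested in the pathway, below the 19.5% of all genes called in that comparison. The median over those 37 genes was 0.046. Adjusted p-values by edgeR were 0.0477 for Aldh2, 0.0254 for Dlst and 0.0443 for Echs1. With 1 rat left out they reached 0.118, 0.0801 and 0.117 in the same order, so the calls of Aldh2, Dlst and Echs1 did not hold in every fit.

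**Figure D4:**
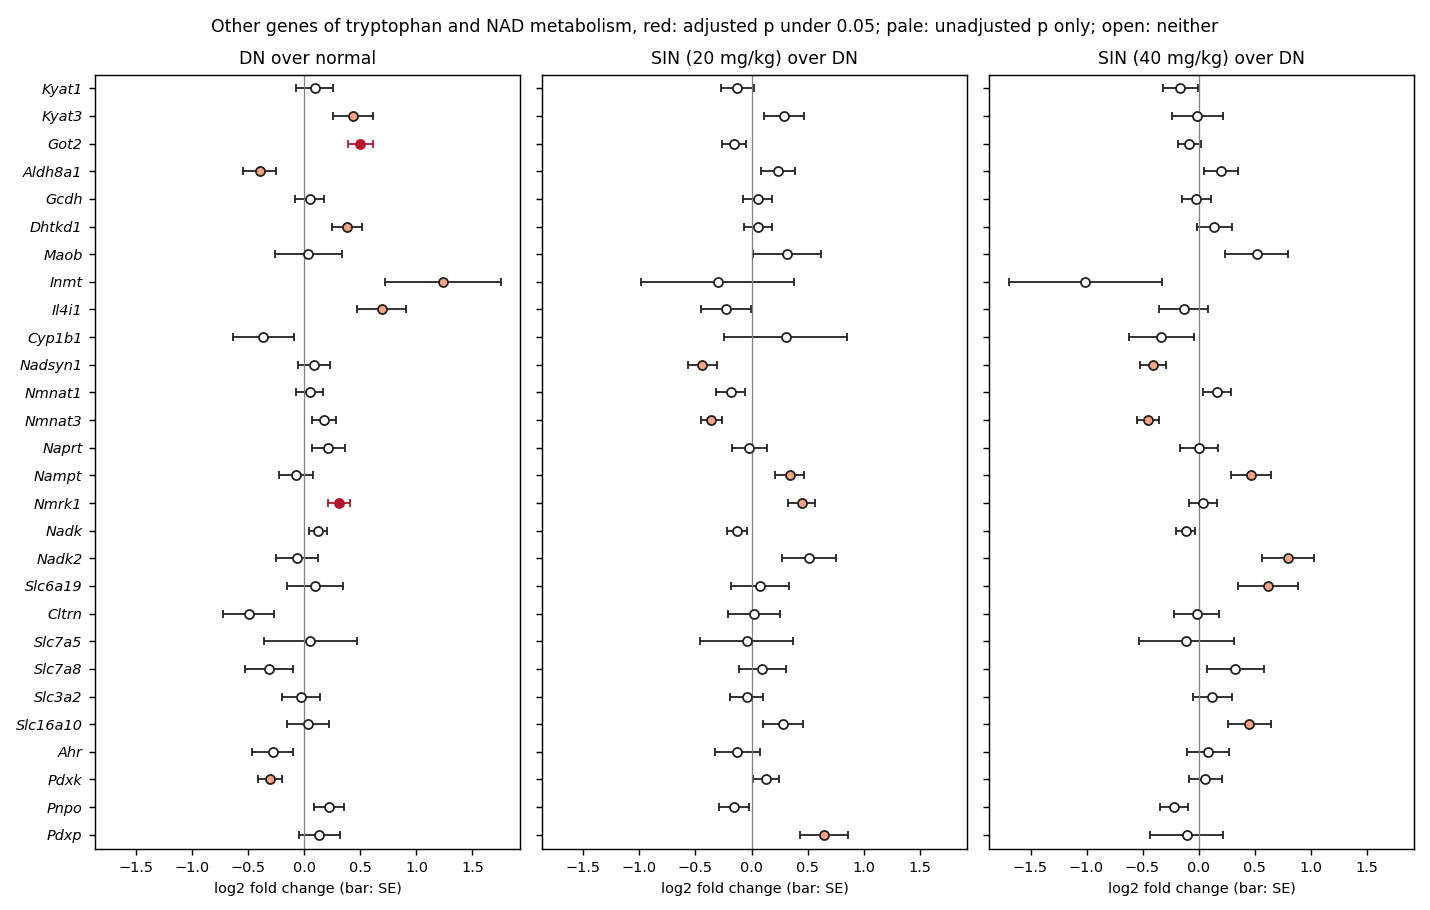
Log2 fold change of the other tested genes of tryptophan enzymes, NAD synthesis, transport and receptors, and vitamin B6 handling (point: fitted value; bar: SE; colours as in the plot of member changes; Cyp1a1 is left off for its range; n = 4 per group). Got2 and Nmrk1 are red in DN over normal, and no gene is red in the SIN comparisons.

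Among 11 genes that make NAD or use nicotinamide, 8 were tested in DN over normal and 1 was called (12.5%, against 19.5% of all genes), Nmrk1 (nicotinamide riboside kinase), at 0.31 (SE 0.095, adjusted p = 0.0488 by edgeR), a call lost in each of the 8 fits that left out 1 rat. Nampt, the rate-limiting enzyme of the salvage route from nicotinamide, had a log2 fold change of −0.075 (SE 0.15) there. Beyond Qprt the route to NAD goes through an Nmnat enzyme, such as Nmnat1 or Nmnat3, and Nadsyn1. Nmnat1, Nmnat3, Nadsyn1 and Nadk2 are named here after their values were seen. Nmnat3 was at 22.7, 25.2, 22.9 and 23.7 CPM in the DN rats, 17.9, 19.0, 18.3 and 18.7 CPM at 20 mg/kg and 19.3, 16.2, 16.7 and 16.7 CPM at 40 mg/kg, so all 8 SIN rats were below all DN rats. Its log2 fold changes over DN were −0.36 (SE 0.092, adjusted p = 0.270 by edgeR) and −0.45 (SE 0.099, adjusted p = 0.175 by edgeR), while DESeq2 gave adjusted p-values of 0.0322 and 0.00589. Nadsyn1, the NAD synthetase, gave −0.44 (SE 0.13) and −0.41 (SE 0.12), again without overlap and with adjusted p-values of 0.270 and 0.200 by edgeR. Nampt had 0.34 (SE 0.13) and 0.47 (SE 0.18) over DN, with groups that overlapped. Nmnat1, which catalyses the same step as Nmnat3, had −0.18 (SE 0.13) at 20 mg/kg and 0.16 (SE 0.12) at 40 mg/kg over DN, with groups that overlapped. Nadk2, an NAD kinase, was at 15.5 to 29.0 CPM in the DN rats, 24.3 to 46.3 CPM at 20 mg/kg and 27.1 to 50.5 CPM at 40 mg/kg. Nmrk1 was at 31.8 to 37.2, 36.9 to 50.7 and 29.7 to 44.1 CPM in the same groups. At each dose 0 of these 8 genes were called over DN by edgeR, and 4 had an unadjusted p under 0.05, 2 higher and 2 lower, against 15.4% of all genes at 20 mg/kg and 17.1% at 40 mg/kg. Groups of 2 of the 8, Nmnat3 and Nadsyn1, were apart from DN at each dose, against 8.99% of all genes at 20 mg/kg and 10.4% at 40 mg/kg.

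Of 8 transporters and receptors, 7 were tested in DN over normal, where edgeR's quasi-likelihood test, DESeq2 and edgeR's exact test each called 0. Of all genes these tests called 3074 of 15775, 4160 of 15751 and 3391 of 15775. In the quasi-likelihood test 0 of the 7 had an unadjusted p under 0.05, against 5823 of 15775 genes. DESeq2 and the exact test each had 1 of the 7 at that level. Slc6a19, which takes up tryptophan in the proximal tubule, had 0.095 (SE 0.25) in DN over normal and was called at 40 mg/kg over normal, at 0.70 (SE 0.18, adjusted p = 0.0457 by edgeR), a call lost in 7 of the 8 fits that left out 1 rat. Ahr, the aryl hydrocarbon receptor, had −0.28 (SE 0.18, adjusted p = 0.284 by edgeR) in DN over normal. Of the 3 genes that handle vitamin B6, the cofactor of Aadat, Kynu and Ddc, 0 were called in DN over normal by edgeR's quasi-likelihood test, DESeq2 or edgeR's exact test, and 1 had an unadjusted p under 0.05.

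Cyp1a1, the classical target gene of the aryl hydrocarbon receptor, was far higher in 1 rat than in the other 15. It was at 2.61, 1.11, 0.658 and 0.623 CPM in the normal rats and 5.31, 0.910, 2.55 and 2.90 CPM in the DN rats. At 20 mg/kg it was at 5.89, 707, 7.60 and 13.1 CPM, and at 40 mg/kg at 4.44, 3.19, 13.2 and 4.69 CPM. All 8 SIN rats were above all normal rats, and those at 20 mg/kg were also above all DN rats. The log2 fold change of SIN (20 mg/kg) over DN was 5.95 (SE 1.68, adjusted p = 0.270, quasi-likelihood) and 1.59 (SE 0.49, adjusted p = 0.246) without SIN (20 mg/kg) replicate 2, while edgeR's exact test gave an adjusted p of 0.0295 with that rat included. Over normal it was 7.20 at 20 mg/kg (adjusted p = 0.0440 by edgeR), 2.82 without replicate 2 (adjusted p = 0.0198 by edgeR), and 2.34 at 40 mg/kg (adjusted p = 0.0396 by edgeR). The calls over normal were lost without any 1 of the 4 normal rats at 20 mg/kg, and at 40 mg/kg without normal replicate 2, 3 or 4 or SIN (40 mg/kg) replicate 2 or 3. With the replicate number as a block, SIN (20 mg/kg) over DN was 2.58 (adjusted p = 0.510 by edgeR). SIN (40 mg/kg) over DN was 1.12 (SE 0.55, adjusted p = 0.327 by edgeR), with groups that overlapped. In DN over normal it was 1.23 (SE 0.59, adjusted p = 0.157 by edgeR). Aadat of the rat with 707 CPM of Cyp1a1 was 2686 CPM, against 2125 to 2644 CPM in the other 3 of its group.

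**Figure D5:**
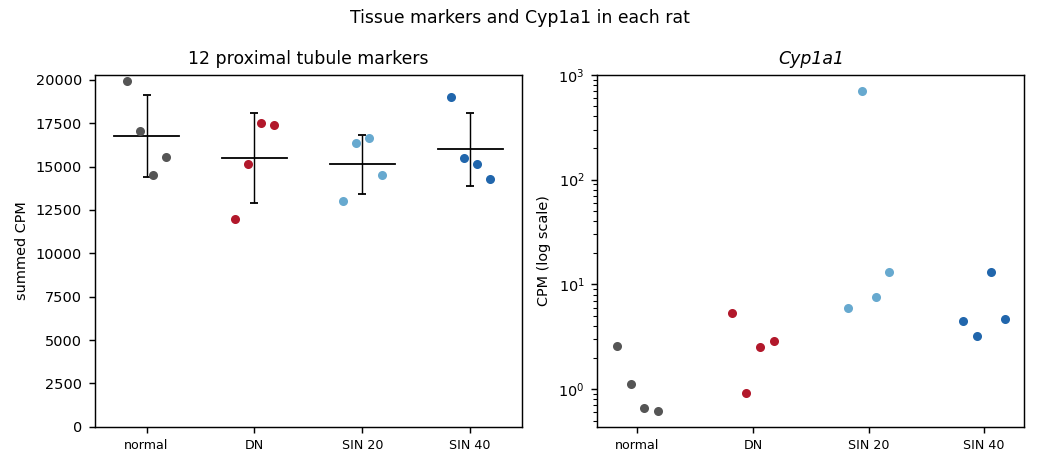
Summed CPM of 12 proximal tubule markers (left, from 0; line: mean; bar: SD) and CPM of Cyp1a1 on a log axis (right) in each of the 16 rats, 4 per group. The marker sums of the groups overlap, and Cyp1a1 reaches 707 CPM in 1 rat at 20 mg/kg against at most 13.2 CPM in the others.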

How the data were processed

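RNA sequencing covered renal tissue of 16 rats in 4 groups of 4. The authors selected mRNA with oligo(dT), prepared libraries with a kit that does not keep strand, trimmed the reads and aligned them with TopHat to the Rnor_6.0 genome, and deposited 1 table of estimated counts for 35849 genes, not normalized. The submitters' processing notes also name Bowtie, RSEM and edgeR. Of the nonzero values 74.3% were whole, and all were rounded to whole counts. Columns were joined to rats by the library numbers of the sample records. A further 4 columns of single rats match no sample record here, and 5 columns hold means. None of these was used. Totals ran from 19616312 to 25217030 counts per rat, and a gene with few counts, such as Tdo2, has little precision. No pair of columns was identical. The labels only number the samples of a group, which were taken as separate rats, so p-values measure the spread between these samples.

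Each of 6 comparisons was fitted alone in edgeR 4.0.16 (quasi-likelihood test, TMM normalization, filterByExpr, two-sided, Benjamini-Hochberg adjustment over the genes tested), and a gene was called at an adjusted p under 0.05. CPM used TMM factors over all 16 rats, and CPM per kb the length column. Ratios were differences of log2 CPM with a prior count of 2, compared by two-sided exact permutation tests over 70 splits and adjusted over 12 tests. Groups were counted as not overlapping where every rat of one was above every rat of the other in CPM. On counts simulated for DN over normal with 15775 genes, 45 of 99 genes changed by 1 on the log2 scale and 5 of 99 changed by 0.5 were recovered, with 7 unchanged genes called. In the data 3074 genes were called, far more than were changed in the simulation. The adjusted cutoff depends on the share of changed genes, so these recovery rates do not carry over directly to the data. A missed call is not read as absence of a change of this size.

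The members and lists were chosen with earlier results of these data known. All members are named. Genes of 4 further lists (17 other tryptophan enzymes, 11 NAD genes, 8 transporters and receptors, 3 vitamin B6 genes) are named where called in DN over normal or where they are Cyp1a1, Asmt, Ido1, Ido2, Kyat1, Kyat3, Slc6a19, Nampt or Ahr, and from KEGG's pathway the 3 highest and 3 lowest called genes are named, of which no lower one existed. A gene first listed with the transporters is not reported here. Il4i1, Aldh8a1, Dhtkd1, Nmnat1, Nmnat3, Nadsyn1 and Nadk2 were chosen after their values were seen. Alternatives were DESeq2 1.42.0, edgeR's exact test, RLE normalization, a shared fit of all 16 rats, a block for the replicate number, a minimum of 10 counts in each rat compared, omission of the filter, a prior count of 0.25 for ratios, and leaving out each rat. Sequences are RefSeq's, in the GRCr8 build. R 4.3.3 and Python 3.11.15 were used.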

Additional observations from a re-analysis of the deposited data

Results flagged for a closer look

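Within each group of 4 rats, a value was marked where its gap to the nearest other rat exceeded Dixon's 95% critical share of the group's range. Of 44 such tests 7 were marked, and chance marks about 1 in 20. Kmo of DN replicate 1 was 177 CPM, against 291 to 303 CPM in the rest of its group, and Kmo of SIN (40 mg/kg) replicate 1 was 362 CPM, against 305 to 307 CPM. Aadat of DN replicate 2 was 3277 CPM, against 2422 to 2557 CPM. Acmsd of SIN (20 mg/kg) replicate 4 was 224 CPM, against 366 to 393 CPM, and Acmsd of SIN (40 mg/kg) replicate 1 was 513 CPM, against 331 to 362 CPM. Haao of normal replicate 3 was 416 CPM, against 463 to 464 CPM. The log2 ratio of Kmo over Aadat in normal replicate 4 was −3.00, against −2.65 to −2.60. Of these 7 values, DN replicate 1 and SIN (40 mg/kg) replicate 1 hold 3, and these rats also have the lowest and the highest sum of proximal tubule markers of their groups.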

How the results depend on the processing

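The rise of Aadat in DN over normal was called under every alternative tried, with log2 fold changes of 0.99 to 1.01 and adjusted p-values of 5.82e-09 to 0.0340 under the other settings. Members called in DN over normal went from 1 to 2 with all 16 rats in one fit (Kmo, adjusted p = 0.0479) and ran from 1 to 2 with a rat left out. Other tryptophan enzymes called there went from 1 to 4 by DESeq2 (Got2, Aldh8a1, Dhtkd1 and Il4i1), to 2 by the exact test, by RLE or with at least 10 counts in every rat, and to 3 with all 16 rats, and ran from 0 to 3 with a rat left out. Over all genes the main fit called 3074 of 15775 there, DESeq2 4160 of 15751 and the exact test 3391 of 15775. RLE called 3059 of 15775, the 10-count minimum 3140 of 14130 and the fit of all 16 rats 3681 of 16404. With a rat left out, 769 to 3781 genes were called. In SIN (40 mg/kg) over DN, DESeq2 called 1 member in place of 0, and 424 of 13697 genes in place of 0 of 15530. In SIN (40 mg/kg) over normal DESeq2 called 4 members in place of 2, and the count ran from 1 to 2 with a rat left out. Over all genes DESeq2 called 1761 of 15719 there, against 940 of 15735 in the main fit and 462 to 1016 with a rat left out. Members at an unadjusted p under 0.05 ran from 0 to 3 in SIN (20 mg/kg) over DN, from 3 to 4 in SIN (40 mg/kg) over DN and from 0 to 2 between the doses with a rat left out. Over all genes these counts ran from 1443 to 2789, from 1672 to 2778 and from 540 to 1083. The cause of these moves was not tested.

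Samples with the same replicate number showed little shared deviation (correlations of −0.25 to 0.28, at most 2 of 4 pairs best with their own number in a comparison). The highest values were in SIN (40 mg/kg) over normal, where a block for that number called 1255 of 15735 genes, against 940 without it. In DN over normal the block called 1325 of 15775 genes, against 3074. The labels give no pairing, and this check cannot exclude one. With the replicate number as a block, other tryptophan enzymes called in DN over normal went to 0, members called in SIN (40 mg/kg) over normal to 4, and members at an unadjusted p under 0.05 to 1 in SIN (40 mg/kg) over DN and 0 between the doses. Over all genes the last 2 counts were 1881 of 15530 and 516 of 15657. Afmid in SIN (20 mg/kg) over normal was no longer called with the block (adjusted p = 0.0553) or with all 16 rats (0.0603).

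Leaving out 1 rat turned the sign of values near 0. In DN over normal the ranges were −0.013 to 0.35 for Acmsd, −0.0055 to 0.31 for Ddc, −0.075 to 0.18 for Kyat1, −0.20 to 0.0057 for Nampt, −0.16 to 0.29 for Slc6a19 and −0.31 to 0.010 for the ratio of Acmsd over Qprt. Kynu ran from −0.032 to 0.24 in SIN (20 mg/kg) over DN and from −0.20 to 0.088 in SIN (40 mg/kg) over DN, and Afmid −0.18 to 0.087 and −0.19 to 0.083. The ratio of Kmo over Aadat in SIN (40 mg/kg) over normal ran from −0.042 to 0.091. Among all 420 log2 fold changes under the other settings none changed sign. Low counts limit Tdo2, Ido1 and Ido2.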
